A study of Mus musculus with 8 samples.

Results

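A set of 10 genes that mark the thalamus and the habenula, the paired epithalamic nucleus beside it, were followed in hippocampal RNA of mice that had received anti-CD4 or control antibodies. The genes were Tcf7l2, Prkcd, Lef1, Slc17a6, Rora, Calb2, Rgs16, Tac3, Pou4f1 and Gbx2, and their probes were found by the gene name printed on the array. Of the 10 names, 9 had a probe, 7 had a probe that could be tested, and these 7 stand among 23625 genes and unnamed probes tested in all. No probe carried the name Tac3, which the symbol table lists as a synonym of Tac2, the mouse neurokinin B precursor, so Tac2 is described with the habenula genes. Pou4f1 and Gbx2 each had 1 probe, which was well above background on 0 of the 8 arrays.

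The hippocampus of female C57BL6/J mice, 8 weeks old, was profiled with Cy3-labelled RNA on one-colour Agilent arrays. The anti-CD4 group (4 arrays), labelled as CD4 depleted, had received antibodies to CD4, a coreceptor of helper T cells, and the control group (4 arrays) control antibodies. Both groups had been housed for 4 weeks in an enriched environment, a cage with added space and objects. No label says that the arrays came from separate animals, so the spread behind each p-value is that between samples and may be technical.

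The thalamus relays sensory and motor signals to the cortex through glutamatergic neurons that load vesicles with VGLUT2, the product of Slc17a6. Tcf7l2 and Lef1 encode HMG-box transcription factors that bind beta-catenin, the effector of canonical Wnt signalling, and Tcf7l2 stays active in adult thalamic and habenular neurons. Most of these genes are not restricted to the thalamus. In mouse brain, Tcf7l2 is also expressed in maturing oligodendrocytes, Lef1 in endothelium of the blood-brain barrier, and Calb2, which encodes the calcium buffer calretinin, in hippocampal interneurons and hilar mossy cells.

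Sequences of 3 probes, each with at least 1 reading frame free of stop codons, are shown as examples of the stretch of transcript that was measured. They are written 5′ to 3′ in lower case.
Tcf7l2, the dimmer of its tested probes: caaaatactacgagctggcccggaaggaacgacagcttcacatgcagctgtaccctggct
Prkcd, the dimmer of its probes: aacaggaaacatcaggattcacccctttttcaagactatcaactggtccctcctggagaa
Calb2, its only probe: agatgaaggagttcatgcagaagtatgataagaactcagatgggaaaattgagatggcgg

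Promoters are shown for Slc17a6, Rora and Rgs16, which had the most negative correlations with dentate gyrus markers over the arrays, and for Prkcd, which had the only positive one. These 4 were picked after their values were seen. Each is the 250 bases before a RefSeq start of the gene on GRCm38.p6, the first listed where there are several, and capitals mark a match to CTTTGA, the core bound by TCF/LEF factors, or to AGGTCA, the core bound by ROR receptors, searched on both strands.
Slc17a6 (chr7:51621580-51621829, + strand): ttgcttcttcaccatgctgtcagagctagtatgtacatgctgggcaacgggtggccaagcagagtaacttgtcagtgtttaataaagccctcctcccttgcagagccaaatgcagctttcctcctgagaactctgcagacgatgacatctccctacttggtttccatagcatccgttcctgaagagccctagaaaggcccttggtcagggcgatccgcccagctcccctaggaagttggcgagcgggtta
Rora (chr9:68653536-68653785, + strand): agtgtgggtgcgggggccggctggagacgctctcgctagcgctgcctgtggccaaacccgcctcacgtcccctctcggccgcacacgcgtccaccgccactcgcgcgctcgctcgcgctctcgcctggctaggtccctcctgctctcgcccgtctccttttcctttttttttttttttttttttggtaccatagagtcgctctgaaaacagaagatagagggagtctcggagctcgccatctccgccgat
Rgs16 (chr1:153740103-153740352, + strand): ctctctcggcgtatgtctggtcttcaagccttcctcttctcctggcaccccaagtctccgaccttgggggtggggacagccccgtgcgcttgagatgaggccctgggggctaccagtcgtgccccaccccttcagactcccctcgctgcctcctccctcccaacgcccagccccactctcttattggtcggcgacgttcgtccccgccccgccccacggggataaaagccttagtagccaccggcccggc
Prkcd (chr14:30626209-30626458, - strand): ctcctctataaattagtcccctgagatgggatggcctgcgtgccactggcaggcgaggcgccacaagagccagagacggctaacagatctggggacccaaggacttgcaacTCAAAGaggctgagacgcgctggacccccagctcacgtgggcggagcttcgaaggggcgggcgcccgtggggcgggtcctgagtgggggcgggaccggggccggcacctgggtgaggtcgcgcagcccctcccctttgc
In the Prkcd window CTTTGA occurred on the opposite strand, with its first base at position -139 from the start. The windows of Slc17a6, Rora and Rgs16 held neither motif. Over 32851 promoter windows of the same length, 13.8% held CTTTGA and 14.0% AGGTCA, on either strand. A match or its lack describes the letters only, and the motifs share no overlap in these windows, as AGGTCA was in none. Of the 15 windows found for the genes followed here and Tac2, 3 held CTTTGA and 0 held AGGTCA.

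Outlier-flagged spots numbered 127 to 179 on the anti-CD4 arrays and 98 to 124 on the control arrays, without overlap. With these spots kept, 1457 rows were higher and 1612 lower at an unadjusted p under 0.05, against 1457 and 1613 with them left out (limma). The share of probes well above background was 51.2% to 54.3%, no probe was saturated, and arrays correlated at 0.988 to 0.996 within groups. The 4 anti-CD4 arrays filled slide row 1 and the 4 control arrays row 2 of the same slide, so an effect of the slide row cannot be told apart from that of the group. The choroid plexus list, 14 genes of the epithelium that makes cerebrospinal fluid, was measured in full, and its mean stood at -2.56 in anti-CD4 replicate 1 and at 1.09 to 2.39 in anti-CD4 replicates 2 to 4. In controls it stood at -3.43 in replicate 3, at -2.43 in replicate 2 and at 1.87 and 1.89 in the others. Array levels are log2 of the processed signal minus the array's 75th percentile, list means are averages of such levels after each gene is centred on its own mean, and differences are anti-CD4 minus control.

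Of markers of the labelled tissue, 10 of 10 dentate granule neuron genes and 10 of 12 genes of CA1 to CA3 pyramidal neurons were measured. The same filter passed 14 of 14 choroid plexus genes and 9 of 11 striatum genes, where any passing probe sufficed for a gene. Counted by probe, named or not, it passed 29418 of 55681, which is not a share of genes. Detection alone thus does not check the label. Of other listed genes, 8 of 10 for the habenula and 9 of 12 for the thalamus were measured, among them Tac1, Tac2, Chrnb4, Gng8 and Nwd2 on all 8 arrays. By contrast, Pou4f1, a transcription factor that defines habenular neurons, Gpr151 and Chrna3 were well above background on 0 of 8 arrays. The same held for Gbx2, a transcription factor of thalamic development, and for the thalamic Plekhg1 and Shox2. The processed signal of Pou4f1 (chromosome 14, 104862743 to 104862802, mm9) was 9.3 to 36 units in the anti-CD4 arrays and 13.3 to 27 units in controls. That of Gbx2 (chromosome 1, 91825013 to 91825072) was 8.4 to 26.7 units in the anti-CD4 arrays and 8.8 to 11 units in controls. Such signals give only a bound, and no difference is given for these genes.

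None of the 7 tested genes passed the adjusted threshold of 0.05 (limma), where 0 of 23625 rows passed and the smallest adjusted p was 0.119. All 7 had a difference above 0, against 51.8% of rows tested, with a median difference of 0.21, against 0.0068 over all rows tested. At an unadjusted p under 0.05, 1 of the 7 was higher, Rora, against 6.17% of rows higher and 6.83% lower, or 3070 rows in all, so that share rests on 1 gene. The groups overlapped for each of the 7, while 3.82% of rows lay wholly higher and 4.36% wholly lower in the anti-CD4 group. Each of the 7 genes was well above background on all 8 arrays with its brightest probe.

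**Figure D1:**
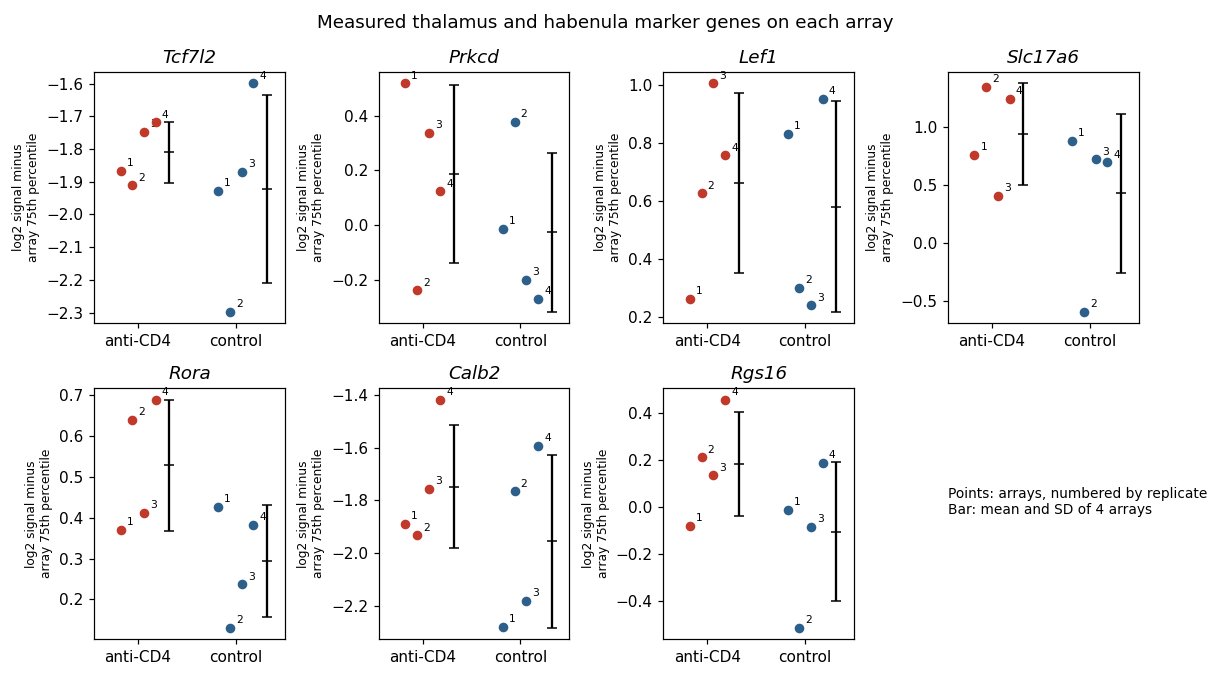
Each point is an array, numbered by replicate, on the log2 scale relative to the array's 75th percentile, with the anti-CD4 group left of the control group and the mean and SD of 4 arrays beside each. The groups overlap in all 7 panels, and control replicate 2 is lowest for Tcf7l2, Slc17a6, Rora and Rgs16.

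Slc17a6, the vesicular glutamate transporter, had the largest difference of the 7. Its probe lies at chromosome 7, 58926067 to 58926126 (mm9, the build of the array files). The level was 0.76, 1.35, 0.41 and 1.24 in anti-CD4 replicates 1 to 4, against 0.88, -0.59, 0.72 and 0.70 in control replicates 1 to 4. Anti-CD4 replicates 2 and 4 lay above every control, anti-CD4 replicate 3 lay below the 3 higher controls, and control replicate 2 lay far below all other arrays. The group means were 0.94 ± 0.44 and 0.43 ± 0.68 (SD, n = 4 each), a difference of 0.51 ± 0.34 (SE; 95% confidence interval -0.27 to 1.30; adjusted p = 0.551, limma). Without control replicate 2 the difference was 0.17.

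Rora, which encodes a nuclear receptor of thalamic and cerebellar neurons, was read at chromosome 9, 69226774 to 69226833. Its level was 0.37, 0.64, 0.41 and 0.69 in the anti-CD4 arrays and 0.43, 0.13, 0.24 and 0.38 in the controls. The upper anti-CD4 arrays, replicates 2 and 4, lay above the controls, and the lower ones lay within the control range. The difference of 0.23 ± 0.10 (SE, interval 0.0013 to 0.47) gave an unadjusted p of 0.0490 and an adjusted p of 0.383 (limma). A further Rora probe, at 68511835 to 68511894 on the same chromosome, was well above background on 2 arrays of each group. Its levels were -4.37, -3.91, -3.83 and -5.18 in the anti-CD4 arrays and -3.89, -3.98, -4.32 and -3.94 in the controls. It differed by -0.29 ± 0.28 and correlated with the brighter probe at -0.411 over the 8 arrays, so the mean of both probes differed by -0.03 (adjusted p = 0.950, limma).

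Rgs16, a regulator that shortens G-protein signalling, was read at chromosome 1, 155592244 to 155592303. The level was -0.08, 0.21, 0.13 and 0.46 in the anti-CD4 arrays and -0.01, -0.52, -0.09 and 0.19 in the controls. Its order over the arrays resembled that of Rora, with anti-CD4 replicates 4 and 2 at the top and control replicate 2 at the bottom. The difference was 0.29 ± 0.16 (SE, interval -0.09 to 0.66, adjusted p = 0.484, limma), and it was 0.15 without control replicate 2.

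Of the HMG-box factors, Tcf7l2 was read by 3 probes that lie 5′ to 3′ along chromosome 19. The brightest, at 55817272 to 55817331, read -1.87, -1.91, -1.75 and -1.72 in the anti-CD4 arrays and -1.93, -2.30, -1.87 and -1.60 in the controls. The anti-CD4 arrays lay close together within the control range, with an SD of 0.09 in the anti-CD4 group and 0.29 in controls. The difference was 0.11 ± 0.14 (SE, interval -0.20 to 0.42, adjusted p = 0.751, limma) and -0.01 without control replicate 2. The middle probe, at 55994029 to 55994088, whose sequence is printed above, read -3.53, -3.16, -2.91 and -2.45 in the anti-CD4 arrays and -3.34, -3.30, -3.13 and -2.95 in the controls, a difference of 0.17 ± 0.21 (SE). It correlated with the brightest probe at 0.55 over 8 arrays. The most 3′ probe, at 56006638 to 56006697, was well above background on 0 of 8 arrays.

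Lef1, the other HMG-box factor, had a level of 0.26, 0.63, 1.01 and 0.76 in the anti-CD4 arrays and 0.83, 0.30, 0.24 and 0.95 in the controls, from a probe at chromosome 3, 130926200 to 130926259. High and low arrays occurred in both groups. The difference was 0.08 ± 0.21 (SE, interval -0.39 to 0.55, adjusted p = 0.888, limma), and it was -0.03 without anti-CD4 replicate 3, -0.01 without control replicate 2 and -0.03 without control replicate 3. The second probe, whose 60 bases match in pieces between 130907851 and 130926012, differed by 0.15 ± 0.24 and correlated with the first at 0.933.

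The arrays that were low for Lef1 were those low for the choroid plexus list. Anti-CD4 replicate 1 and control replicates 2 and 3 read 0.26, 0.30 and 0.24 for Lef1 and -2.56, -2.43 and -3.43 for the choroid list. Anti-CD4 replicates 2 to 4 and control replicates 1 and 4 read 0.63 or more for Lef1 and 1.09 or more for the list, and the highest array was anti-CD4 replicate 3 for both. As the list falls into separate clusters of arrays, no correlation is given. The list's part in the level of Lef1 was not tested.

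**Figure D2:**
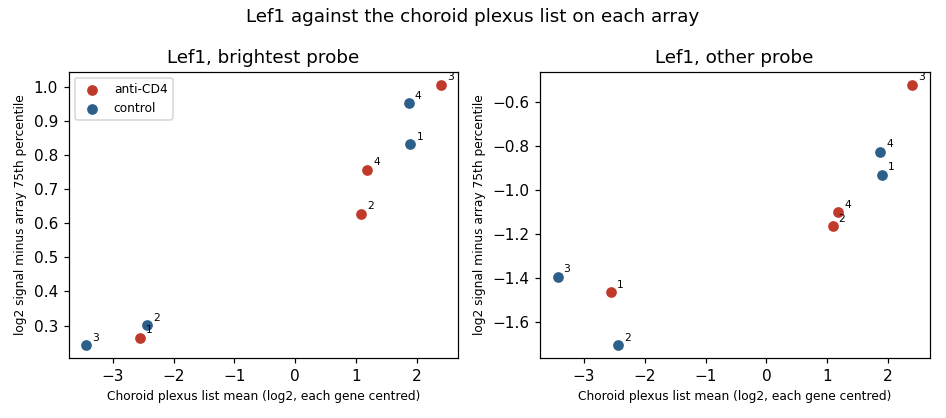
Each point is an array: the choroid plexus list mean (log2, each gene centred) on the horizontal axis and the level of Lef1 (log2 relative to the array's 75th percentile) on the vertical axis, for the brightest probe and the other probe. The 3 arrays with a list mean of -2.43 or lower have the 3 lowest Lef1 levels with either probe.

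Prkcd, which encodes protein kinase C delta, an enzyme of first-order relay nuclei and also of blood-derived cells, had 2 tested probes on chromosome 14. The brighter, at 31409035 to 31409094, read 0.52, -0.24, 0.34 and 0.12 in the anti-CD4 arrays and -0.01, 0.38, -0.20 and -0.27 in the controls. Control replicate 2, the lowest array for Slc17a6, Rora and Rgs16, was the highest control here, and anti-CD4 replicate 2, high for those genes, was the lowest of its group. The difference was 0.21 ± 0.19 (SE, interval -0.22 to 0.65, adjusted p = 0.657, limma). The probe at 31411938 to 31411997, whose sequence is printed above, differed by 0.21 ± 0.18, and both probes correlated at 0.992 over the 8 arrays.

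Calb2 was read at chromosome 8, 112678555 to 112678614, with a level of -1.89, -1.93, -1.76 and -1.42 in the anti-CD4 arrays and -2.28, -1.77, -2.18 and -1.59 in the controls. Only anti-CD4 replicate 4 lay above every control. The difference was 0.21 ± 0.18 (SE, interval -0.20 to 0.61, adjusted p = 0.638, limma). The GABAergic interneuron list, which does not hold Calb2, had 4 of 10 measured genes above 0 and a median difference of -0.02.

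**Figure D3:**
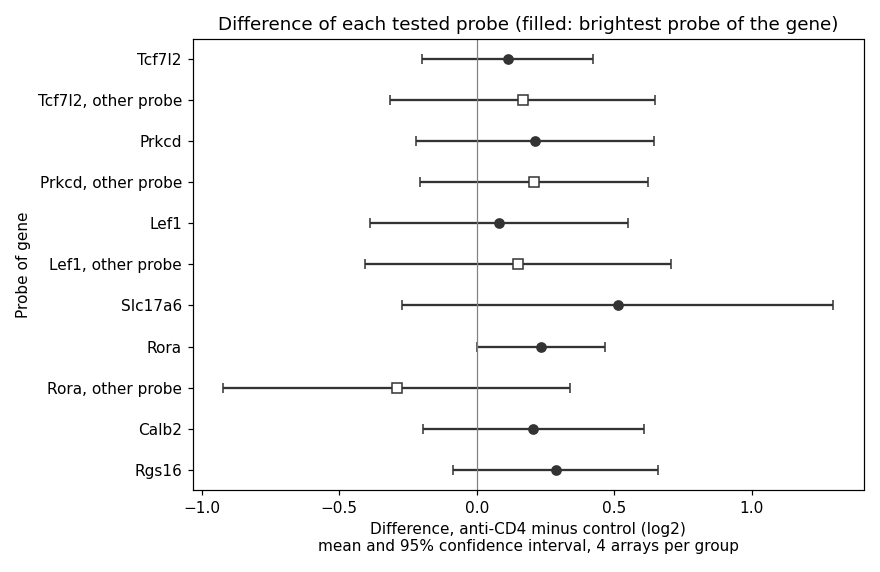
Points are differences on the log2 scale, anti-CD4 minus control, with 95% confidence intervals from limma and 4 arrays per group; filled points are the brightest probe of a gene and open squares its other tested probe. Of the 11 tested probes 10 lie above 0, the other Rora probe lies at -0.29, and only the interval of the brightest Rora probe (0.0013 to 0.47) does not span 0.

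Among the 21 pairs of the 7 genes, Rora and Rgs16 had the highest correlation, with Pearson's r = 0.893 (exact permutation p = 0.00124, 0.0260 after adjustment over 21 pairs) and Spearman's rho = 0.905 (exact permutation p = 0.00456, 0.0958 adjusted; n = 8). Leaving out the 2 arrays farthest from the median of Rora gave r = 0.692, and r was 0.888 within the anti-CD4 group and 0.863 within controls. For the pairs that follow, the 2 farthest arrays are those farthest from the median of the gene named first. Slc17a6 and Rora had r = 0.847 (exact permutation p = 0.00484, 0.0508 adjusted) and rho = 0.762 (exact permutation p = 0.0368, 0.386 adjusted), with r = 0.705 without the 2 farthest arrays. Slc17a6 and Rgs16 had r = 0.839 (exact permutation p = 0.0163, 0.105 adjusted) and rho = 0.619 (exact permutation p = 0.115, 0.556 adjusted), and r was 0.521 without the 2 farthest arrays. Tcf7l2 and Rgs16 had the same r of 0.839 (exact permutation p = 0.0200, 0.105 adjusted) and rho = 0.595 (exact permutation p = 0.132, 0.556 adjusted), with r = 0.647 without the 2 farthest arrays. Only Rora and Rgs16 passed the adjusted threshold by r, and no pair passed it by rho. The permutations moved arrays across groups, so a group shift shared by both genes of a pair enters these p-values. Prkcd had the lowest value, r = -0.498 against Slc17a6 (exact permutation p = 0.211, 0.454 adjusted) and rho = -0.310. Within the groups that pair had r = -0.780 in anti-CD4 arrays and -0.877 in controls. Of the 21 pairs 15 had r above 0, with a median of 0.335 and a range of -0.498 to 0.893. Here and in the dentate relations below, each gene was read by its brightest probe. The other, dim Rora probe correlated with the brightest at -0.411, so the Rora relations rest on 1 probe.

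Each of the 7 genes was also set against the markers of dentate granule neurons, the principal cells of the dentate gyrus. The mean of the dentate list, by replicate from 1 to 4, was 0.09, -0.53, 0.16 and -0.31 in the anti-CD4 group and -0.07, 0.43, 0.22 and 0.0078 in the control group. It was lowest in anti-CD4 replicates 2 and 4, the highest arrays for Slc17a6 and Rora, and highest in control replicate 2, their lowest. Over the 8 arrays, and 7 such relations computed after the array values had been seen, r was -0.938 for Rora (exact permutation p = 0.00136, 0.00955 adjusted; rho = -0.905, exact permutation p = 0.00456, 0.0250 adjusted). For Slc17a6, r was -0.874 (exact permutation p = 0.00337, 0.0118 adjusted; rho = -0.881, 0.0250 adjusted). For Rgs16, r was -0.781 (exact permutation p = 0.0236, 0.0552 adjusted; rho = -0.857, 0.0250 adjusted).

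Leaving out the 2 arrays farthest from the median of the dentate list gave r = -0.923 for Rora, -0.869 for Slc17a6 and -0.779 for Rgs16. Within the anti-CD4 group these were -0.901, -0.957 and -0.609, and within controls -0.998, -0.871 and -0.879. By r, Rora and Slc17a6 fell under the adjusted threshold and Rgs16 did not, and by rho all 3 did. Of the marker lists, the dentate list had the most negative correlation with the mean of the tested genes (r = -0.746). Other lists were nearly as far from 0: choroid plexus 0.700, striatum 0.699, endothelium 0.682, other habenula genes 0.676, hypothalamus and medial amygdala 0.657. Nearer to 0 were interneurons (0.394), the Wnt pathway (0.379), myelin (-0.380), CA1 to CA3 (-0.151) and other thalamus genes (0.099). Gene by gene, correlations were computed for the dentate list alone. The adjustment does not cover the choice of that list. The permutations also moved arrays across groups, while the dentate list mean differed by -0.30 and Rora by 0.23 between groups. These p-values thus describe the relations and do not test them. For the other 4 genes r was -0.414 for Tcf7l2, -0.370 for Lef1, -0.142 for Calb2 and 0.466 for Prkcd (exact permutation, adjusted p = 0.430, 0.430, 0.743 and 0.430). For Prkcd r was 0.929 within the anti-CD4 group and 0.677 within controls, with a sign opposite to that of Rora, Slc17a6 and Rgs16, and 0.0286 without the 2 farthest arrays. In RNA of whole tissue, fewer cells of a type and less RNA per cell cannot be told apart, and the part of the dentate signal in the levels of these genes was not tested.

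**Figure D4:**
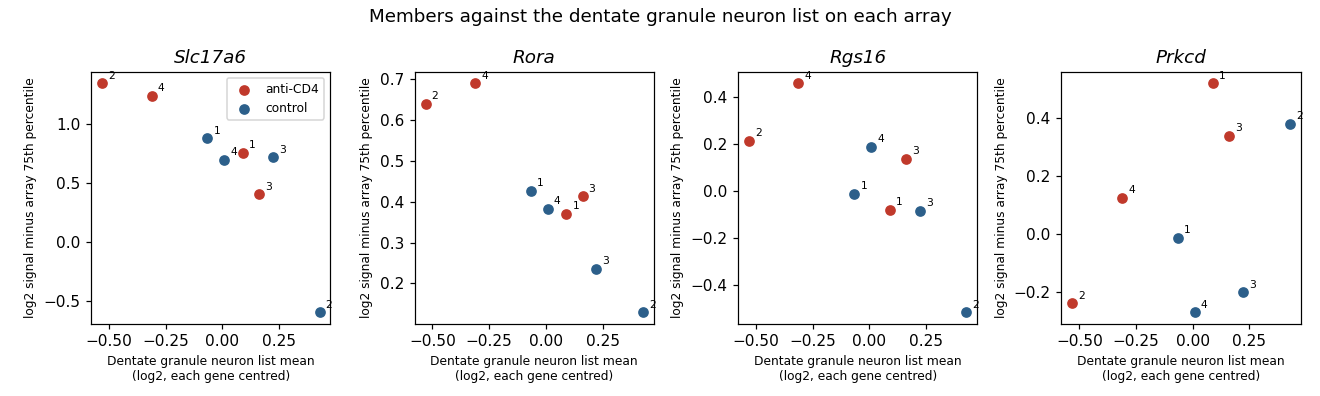
Each point is an array, numbered by replicate: the mean of 10 dentate granule neuron genes (log2, each gene centred) on the horizontal axis and the level of the named gene (log2 relative to the array's 75th percentile) on the vertical axis. Over the 8 arrays r was -0.874 for Slc17a6, -0.938 for Rora, -0.781 for Rgs16 and 0.466 for Prkcd, and for Prkcd it was 0.929 within the anti-CD4 group and 0.677 within controls.

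Each array was left out in turn. The median over the 7 genes ranged from 0.15 to 0.27, and the Slc17a6 difference from 0.17 to 0.69. Differences of Tcf7l2 and Lef1 went below 0 when 1 array was left out, control replicate 2 for Tcf7l2 and any of 3 arrays for Lef1. Differences of Prkcd, Slc17a6, Rora, Calb2 and Rgs16 stayed above 0 in each of these 8 fits. The Prkcd difference was 0.10 without anti-CD4 replicate 1 and 0.35 without anti-CD4 replicate 2, and the Calb2 difference was 0.10 without anti-CD4 replicate 4 and 0.33 without control replicate 4. Rora had an unadjusted p of 0.0288, 0.1205, 0.0404 and 0.1296 without anti-CD4 replicates 1 to 4 (limma). Without control replicates 1 to 4 it was 0.0355, 0.1218, 0.1046 and 0.0517 (limma). In the fit without control replicate 4, Rgs16 had an unadjusted p of 0.0462 (limma).

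**Figure D5:**
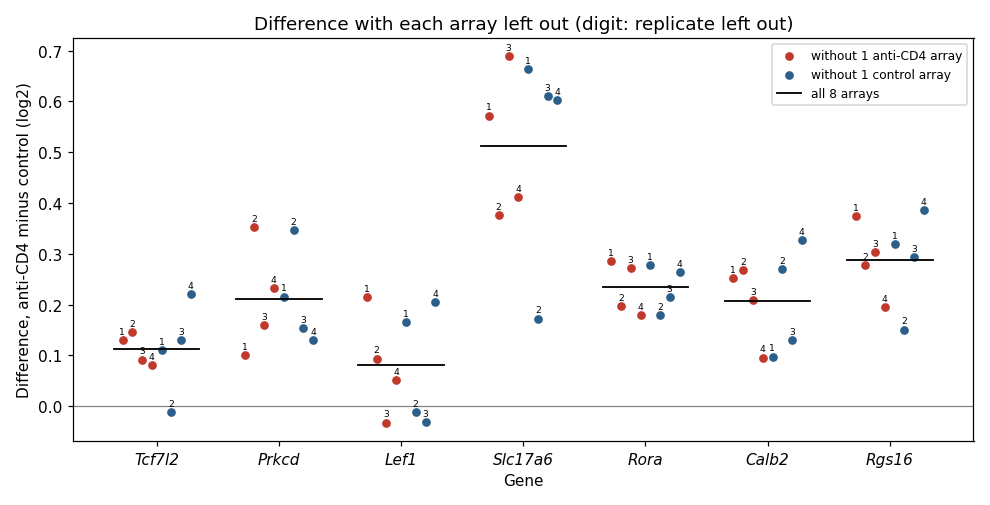
Points are differences on the log2 scale, anti-CD4 minus control, with 1 array left out (the digit is its replicate number), and black lines the difference with all 8 arrays. Leaving out control replicate 2 brings Slc17a6 to 0.17, against 0.51 with all arrays, and Tcf7l2 to -0.01, against 0.11.

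Of 12 other thalamus genes, 9 were measured, 7 had a difference above 0, 0 passed the adjusted threshold or an unadjusted p under 0.05 (limma), and the median difference was 0.07. Ramp3, a receptor activity-modifying protein, differed by 0.45 (adjusted p = 0.400) and Slitrk6, a synaptic adhesion protein, by 0.35 (adjusted p = 0.522). The LIM factor gene Lhx9 differed by -0.26 and the troponin gene Tnnt1 by 0.24, and Slitrk6 was well above background on 3 of 4 control arrays. The mean of the list ranged from -0.11 to 0.18 in the anti-CD4 arrays and from -0.11 to 0.02 in controls. Adarb1, an RNA-editing enzyme, differed by 0.14.

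Other habenula genes were measured in 8 of 10 cases, 6 of them with a difference above 0 and a median of 0.25. Tac1 and Tac2, the tachykinin precursors, were the 2 of 8 higher at an unadjusted p under 0.05, against 6.17% of all rows, and 0 passed the adjusted threshold (limma). Tac2, for which Tac3 is a synonym, was read at chromosome 10, 127168764 to 127168823, with a level of 1.12, 1.38, 0.50 and 1.30 in the anti-CD4 arrays and 0.65, 0.59, 0.76 and 0.43 in the controls. All anti-CD4 arrays but replicate 3 lay above every control. The difference was 0.47 ± 0.18 (SE, adjusted p = 0.346, limma). Tac1 differed by 0.58, with 2.30 in anti-CD4 replicate 3, within the control range of 2.04 to 2.48. Chrnb4, a nicotinic receptor subunit, differed by 0.48 (adjusted p = 0.437), the presynaptic Nwd2 by 0.27 and the choline acetyltransferase gene Chat by -0.86. The Chat level was -6.59 in anti-CD4 replicate 1, -4.09 to -3.51 in anti-CD4 replicates 2 to 4 and -3.85 to -3.02 in controls. Anti-CD4 replicate 1 thus lay far below the other 7 arrays, and Chat was well above background on 3 of 4 anti-CD4 arrays.

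Of the Wnt pathway, 26 of 27 listed genes were measured, 13 with a difference above 0 and 13 below, with a median of 0.02. None passed the adjusted threshold (limma), and 1 of 26 was higher and 2 of 26 lower at an unadjusted p under 0.05, near the 6.17% and 6.83% over all rows. Nkd1, a target gene and feedback inhibitor of the pathway, had levels that did not overlap between groups and differed by 0.33 ± 0.06 (SE, adjusted p = 0.179, limma). Znrf3, which removes Wnt receptors from the membrane, and the scaffold Dvl1 differed by -0.23 and -0.18, also without overlap, as in 3.82% of all rows on the higher and 4.36% on the lower side. Its relatives Dvl3 and Dvl2 differed by 0.26 and -0.17. Ctnnb1, the gene of beta-catenin, and the target gene Axin2, which the naming rule did not pick, gave -0.03 and 0.14. Tcf7 was well above background on at most 2 arrays.

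Markers of neighbouring tissue and other cells were read in the same arrays, and 0 of their genes passed the adjusted threshold. All 7 of the 14 hypothalamus and medial amygdala genes that were measured had a difference above 0 (median 0.80), with list means of -0.32 to 1.28 in the anti-CD4 arrays and -1.06 to -0.49 in controls. Of these 7, 5 were higher at an unadjusted p under 0.05, against 6.17% of all rows, and 3 did not overlap between groups, against 3.82%. The lists were chosen with earlier results of these data known, so such counts describe the lists and do not test them. Baiap3 differed by 1.99 (adjusted p = 0.184, limma). Trh, the precursor of thyrotropin-releasing hormone, differed by 4.58 (adjusted p = 0.228, limma), with 2.34 to 2.68 in anti-CD4 replicates 1, 2 and 4, -2.49 in anti-CD4 replicate 3 and -4.36 to -2.94 in controls, of which 3 of 4 were well above background. Avp and Oxt were well above background on 3 arrays each, and Sim1, Otp and Nkx2-1, transcription factors of hypothalamic neurons, on 0 of 8. The striatum list had 7 of 9 above 0 (median 0.24), with Drd2 well above background on 0 of 8 arrays and list means of -0.08 to 0.50 against -0.58 to 0.08. The choroid plexus list had 14 of 14 above 0 (median 1.09), with widely overlapping list means of -2.56 to 2.39 against -3.43 to 1.89. Of these 14 genes, 0 were higher at an unadjusted p under 0.05 and 0 had groups without overlap. The endothelium list had 9 of 10 above 0 (median 0.20, list means -0.04 to 0.20 against -0.28 to 0.03). Of the 10 endothelial genes 6, Flt1 (0.33) and Esam (0.24) among them, were higher at an unadjusted p under 0.05, against 6.17% of all rows. Of the same 10 genes, 5 lay wholly higher in the anti-CD4 group, against 3.82%. Below 0 lay 9 of 10 dentate genes (median -0.38) and 7 of 10 myelin genes (median -0.16, list means -0.27 to 0.14 against -0.07 to 0.19). At an unadjusted p under 0.05 (limma), 2 dentate genes were lower, Npnt (-0.49) among them, and 1 was higher, Calb1 (0.43). By the same threshold 4 of 10 myelin genes were lower, against 6.83% of all rows, and 2 of 9 striatum genes higher, against 6.17%. The striatum genes were Six3 (1.63) and Penk (0.56). Six3 was well above background on 4 of 4 anti-CD4 arrays and on 1 of 4 controls. Its groups did not overlap, as in 3.82% of all rows on the higher side. The CA1 to CA3 list had 5 of 10 on each side (median -0.03). Of these 10, 1 was higher at an unadjusted p under 0.05 (limma), Cacng5 (0.55), against 6.17% of all rows. The groups did not overlap for Cacng5 either. The part of these markers in the levels of the 7 genes was not tested.

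The genes most like the mean of the 7 over the 8 arrays were found by Pearson's r, as a description chosen from all named genes tested. The highest were Cdh5, the cadherin of endothelial junctions (r = 0.979), Tpra1 (0.977), and Ngfr, the p75 neurotrophin receptor gene (0.963). Mapk4, Svep1, Txndc5, Stard10, Wdr70, the endothelial Esm1 and the cell cycle inhibitor gene Cdkn1a followed at 0.945 to 0.959. Cdh5 read -1.01, -0.99, -1.01 and -0.77 in the anti-CD4 arrays and -1.15, -1.45, -1.27 and -1.05 in the controls. Its difference was 0.28 (adjusted p = 0.310, limma), without overlap, as in 3.82% of all rows on the higher side. Cdh5 was picked for its likeness to a mean that itself differed by 0.24 between groups. That choice favoured a difference above 0. For Tcf7l2 alone the nearest were Xrcc2 (0.973), Marchf2 (0.966) and Shroom1 (0.961), and for Prkcd alone Ppib (0.957), Emp1 (0.951) and Cyp4v3 (0.949). The mean of the 7 genes was -0.0053, 0.09, 0.10 and 0.29 in the anti-CD4 arrays and -0.03, -0.35, -0.18 and 0.09 in the controls.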

How the data were processed

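Total RNA of hippocampus was measured on 8 Agilent arrays. Per the file headers, the spot intensity values come from Feature Extraction 10.7.3.1, which subtracted background and removed spatial trends inside an array; nothing in the headers scales arrays to each other. The authors also deposited log2 values, whose array medians were 7.83, whose ranks followed the median spot signal, and whose sorted columns differed by at most 0.121. limma is named in the submitters' processing notes, and no source used here gives further steps.

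Control spots were left out, unflagged spots of a probe were averaged on the log2 scale, and each array's 75th percentile was subtracted. Of 55681 probes, 29418 were well above background on at least 4 of 8 arrays and were tested; a gene was represented by its brightest tested probe, giving 23625 rows. Probes were named through RefSeq tables (GRCm38.p6): 27509 matched by accession, 3549 by symbol and 404 by synonym, while 1083 kept the array's own name and 23136 had no name. Outlier-flagged spots numbered 127 to 179 per anti-CD4 array and 98 to 124 per control array (exact permutation p = 0.0286, two-sided, the smallest possible over 70 assignments).

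Arrays were grouped by title. The 2 groups were fitted with limma (version 3.58.1, R 4.3.3; lmFit, eBayes), with two-sided p-values adjusted by Benjamini-Hochberg over all rows at a threshold of 0.05, after a test on simulated data. The number of arrays limits the precision. Genes and lists were chosen with earlier results of these data known. Named genes were the 10 of the set, up to 5 of each thalamus, habenula and Wnt list by smallest p, the nearest genes by correlation and, for lists of other cell types and neighbouring tissue, up to 2 by smallest p; undetected list genes, Gng8, Ctnnb1 and Axin2 were named after their values were seen. Probe positions are on mm9, and no exon annotation of that build was used here; promoters were matched by symbol for 9 genes, Tac2 among them, and none was used here for Calb2. Alternatives covered normalization, background correction, the filter, the probe of a gene, the replicate block, empirical Bayes options, array weights, flagged spots, the authors' table and each array left out.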

Additional observations from a re-analysis of the deposited data

Results flagged for a closer look

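Among 16 groups of 4 values examined, 1 held an array that stood apart by a gap test, where chance gives about 5% of groups. The Slc17a6 level ranged from 0.41 to 1.35 in the anti-CD4 arrays. Among controls, replicate 2 lay at -0.5923 and replicates 1, 3 and 4 lay between 0.6962 and 0.8809. The same array had the highest dentate list mean, 0.43, and a choroid plexus list mean of -2.43, and the part of these in the value was not tested.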

How the results depend on the processing

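The count of genes past the adjusted threshold was 0 with the chosen settings (limma, 3070 rows at an unadjusted p under 0.05), 2 with the authors' table, 2 with trend and robust empirical Bayes and 0 to 11 with an array left out, 11 without anti-CD4 replicate 3; the cause was not tested, and none of the 7 genes was among them. Centring each array on its median gave 2071 rows higher and 960 lower at an unadjusted p under 0.05, in place of 1457 and 1613. The count of the 7 genes higher at an unadjusted p under 0.05 was 1 with the chosen settings and 0 with quantile normalization, normexp, the authors' table, no filter, the mean of a gene's probes and the replicate block, and 0 to 1 with an array left out; it was 0 without anti-CD4 replicate 2 or 4 and without control replicate 2 or 3, and without control replicate 4 the 1 gene was Rgs16, not Rora. Rora differed by -0.02838 with the mean of its probes, which takes in the dim probe. With an array left out, Tcf7l2 ranged from -0.01202 to 0.2208 and Lef1 from -0.03212 to 0.2153. Tcf7l2 was below 0 without control replicate 2, and Lef1 was at -0.03212, -0.01159 and -0.03121 without anti-CD4 replicate 3, control replicate 2 and control replicate 3. The median difference over the 7 genes was 0.15 to 0.27 with an array left out and 0.17 to 0.25 under the other settings. Same-numbered arrays did not pair: their deviations from the group means correlated at -0.445, -0.283, -0.314 and 0.280, and the replicate block, which equals slide column, brought the count of rows at an unadjusted p under 0.05 to 2208. Probes near background, such as the second Rora probe, are the least certain.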
